A study of Mus musculus with 4 samples.

Results

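The 9 genes described here encode transient receptor potential (TRP) cation channels, chosen by name as channels for heat, cold and irritants. All 9 were among the 14405 genes of the expression matrix: Trpv1, Trpa1, Trpm8, Trpm3, Trpv2, Trpm2, Trpm4, Trpm7 and Trpc1. RNA was sequenced in bulk from dorsal root ganglia, which hold the cell bodies of sensory neurons next to the spinal cord, of mice aged 10 weeks on a strain labelled as mixed. The 2 wild type samples carry no further allele in their labels. The 2 mutant samples have the genotype Prdm12-/Fl; AvilCreERT2/+, that is one null allele of Prdm12, one allele that Cre recombinase can delete, and a Cre that tamoxifen activates, driven by the sensory neuron gene Avil in a single copy. Prdm12 encodes a transcriptional regulator needed to form nociceptors, the pain-sensing neurons, and the series' title sets its loss in development against its loss in mature nociceptors. The sources used here do not give when tamoxifen was applied, whether the wild types received it, or whether a sample was 1 animal or a pool. The p-values therefore reflect only the spread among these 4 samples, part of which may be technical.

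TRP channels are tetramers that let cations into the cell when they are opened by temperature, chemicals or lipids, and in sensory nerve endings this depolarizes the axon and starts the signal of heat, cold or irritation. TRPV1, TRPA1 and TRPM8 are found mainly in particular sensory neurons, the first and the second in nociceptors and the third in cold-sensing neurons. TRPM3 is a heat-activated channel of many sensory neurons. TRPV2, TRPM2, TRPM4, TRPM7 and TRPC1 are made by many other cell types of the ganglion as well. The comparison asks whether the transcripts of these channels differed between mutant and wild type ganglia, and whether the restricted channels differed in another way than the widely expressed ones.

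Levels are in FPKM, which scale a gene's fragments by its transcript length and by library size. Prdm12 itself had 7.58 and 10.7 FPKM in the wild types against 1.05 and 1.50 FPKM in the mutants, so the targeted gene was lower in both samples labelled as mutant. Avil, whose promoter drives the Cre, had 78.4 and 124 FPKM against 102 and 164 FPKM, with overlapping groups. Markers of pain-sensing neurons were present in each sample, with Calca at 1547 to 1861 FPKM. Some markers of other tissue differed between samples of the same group. The summed level of 9 skeletal muscle markers ran from 330 to 4825 FPKM and that of 7 adipocyte markers from 276 to 2335 FPKM, and in both groups the second sample was the higher.

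Of the 9 channels, Trpm3 was the one with a clear gap between the groups, at a level 2.14-fold lower in the mutants by the means. Trpv1 and Trpa1, the heat and irritant channels of nociceptors, had nearly equal means in both groups. Trpm8 and Trpm7 had both mutant values below both wild type values, with gaps smaller than the range within either group. With limma, 0 of 9 members and 0 of 14040 genes (0%) passed an adjusted p of 0.05. At an unadjusted p under 0.05 there was 1 member (11.1%), Trpm3, which was lower, where 4.36% of all genes tested reached that p, 3.01% lower and 1.35% higher. Without overlap between the groups, 3 of 9 members (33.3%) were lower and 1 of 9 (11.1%) higher, against 19.6% and 12.5% of all genes tested. The median log2 difference of the members (mutant minus wild type of the mean log2(FPKM + 1)) was 0.01, beside -0.0048 over all genes tested. In bulk ganglia, fewer cells of a type and less RNA per cell cannot be told apart.

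**Figure D1:**
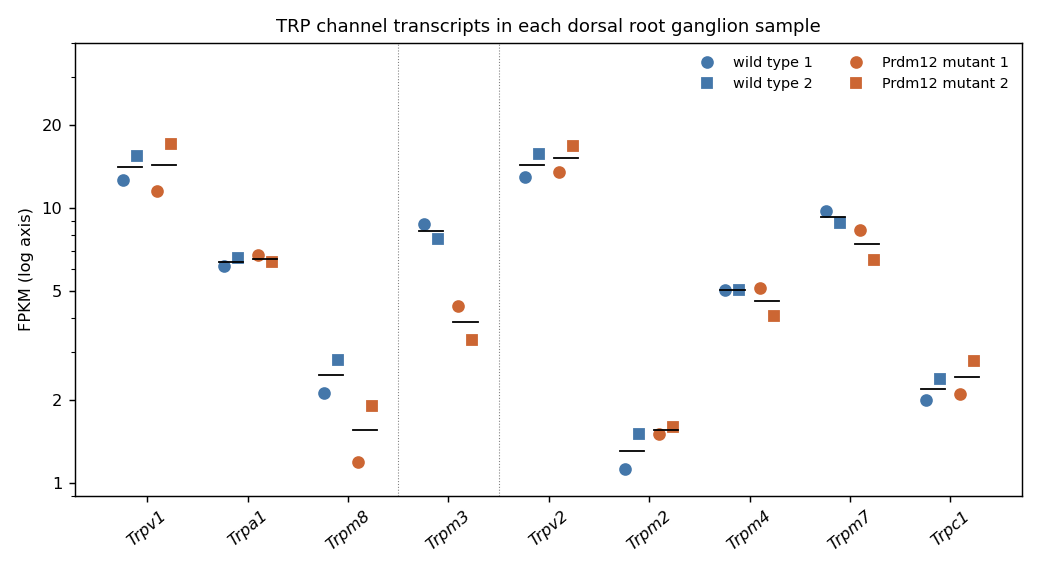
FPKM on a log axis for the 9 TRP channel genes in each sample, wild type in blue and mutant in orange, with circles for the first and squares for the second sample of a group, short lines for the group means, and dotted lines between restricted channels, Trpm3 and widely expressed channels. The Trpm3 samples lie at 7.75 to 8.79 FPKM in wild type and 3.30 to 4.42 FPKM in the mutants, while the Trpv1 and Trpa1 samples of both groups overlap.

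Trpv1 encodes the receptor for capsaicin and noxious heat and lies at chr11:73234292-73261242 (mm10, ENSMUSG00000005952.15, plus strand). It had 12.7 and 15.5 FPKM in the wild types (samples 1 and 2 of the group) against 11.5 and 17.2 FPKM in the mutants. The mutant samples were both the lowest and the highest of the 4, so the groups overlapped fully. The means were 14.1 ± 2.03 and 14.4 ± 3.98 FPKM (SD, n = 2 each), and the log2 difference was 0.01 with a 95% interval of -0.56 to 0.58 (limma adjusted p = 0.997). A change within that interval, in either direction, remains compatible with these samples. Without mutant 1 the difference was 0.27 and without mutant 2 it was -0.26. In both groups the second sample had the higher Trpv1 value, and the sum of 14 pan-neuronal genes did the same, with levels of 4596 and 6067 FPKM in wild type and 4889 and 7203 FPKM in the mutants. The part of neuronal content in the Trpv1 values was not tested.

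Trpa1, at chr1:14872648-14918862 (ENSMUSG00000032769.5, minus strand), encodes the channel that reactive irritants such as mustard oil open. It showed 6.18 and 6.58 FPKM in the wild types and 6.75 and 6.36 FPKM in the mutants. The 4 values lay close together and those of the groups overlapped. With a log2 difference of 0.03, an interval of -0.32 to 0.39 and a limma adjusted p of 0.994, Trpa1 had the narrowest interval of the 9 members.

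Trpm8, the receptor for cold and menthol, lies at chr1:88277661-88389293 (ENSMUSG00000036251.16, plus strand). It had 2.13 and 2.80 FPKM in the wild types against 1.19 and 1.91 FPKM in the mutants. Both mutant values were below both wild type values, but mutant 2 and wild type 1 lay closer to each other than either did to the other sample of its group. The means were 2.46 ± 0.470 and 1.55 ± 0.510 FPKM (SD, n = 2 each), 1.59-fold lower in the mutants, with a log2 difference of -0.45 and an interval of -0.99 to 0.09 (limma unadjusted p = 0.0883, adjusted p = 0.994). The difference shrank to -0.24 without mutant 1 and reached -0.65 without mutant 2. At so few FPKM the added constant of 1 compresses a difference, and with a constant of 0.1 it was -0.66.

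Other genes named for cold-sensing neurons stood beside it. Of a list of 8, 7 were tested, and 4 were lower and 0 higher without overlap, where 19.6% of all genes tested were lower in that way. The list's median was -0.40. Only Kcnk2, which encodes the potassium channel TREK-1, was at an unadjusted p under 0.05. Kcnk2 showed 19.0 and 17.9 FPKM in the wild types and 11.6 and 9.33 FPKM in the mutants (log2 difference -0.77, limma unadjusted p = 0.00427, adjusted p = 0.601). The other 3, named after their values were seen, were the enkephalin precursor gene Penk (log2 difference -0.86), the transcription factor gene Foxp2 (-0.67) and the cadherin gene Cdh8 (-0.40). For Penk and Foxp2 the gap rested largely on mutant 2, at 5.74 and 3.30 FPKM, where mutant 1 had 13.01 and 6.63 FPKM. Without mutant 2 their differences were -0.34 and -0.26. Of 13 markers of fibroblasts and of the meninges, 8 were lower in the mutants without overlap, against the same 19.6% of all genes tested. That list was written with the fall of several of its genes known, so the count is a description. The summed level of the 13 was 19393 and 18150 FPKM in wild type and 9071 and 6177 FPKM in the mutants. Ptgds alone held 13098 and 13055 FPKM of the wild type sums and 3201 and 3025 FPKM of the mutant sums. The median deviation of the 13 from their means on the log2 scale was 0.74 and 0.49 in wild type and -0.51 and -0.85 in the mutants. The part of those cells in the lower values of the cold-sensing list was not tested. Kcna1 was the most abundant gene of the list by the mean of all 4 samples, though not in the wild types. It encodes a potassium channel that dampens excitation by cold, and its log2 difference was 0.32 with overlapping groups. Kcna2 (0.29) and Kcnk4 (0.01), named to complete the list, overlapped between the groups too.

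Trpm3 is the member with the largest difference. The gene spans 856 kb at chr19:22139046-22995410 (ENSMUSG00000052387.16, plus strand) and encodes a channel opened by heat and by the steroid pregnenolone sulfate. It had 8.79 and 7.75 FPKM in the wild types against 4.42 and 3.30 FPKM in the mutants. Every mutant value lay below every wild type value, by more than the range within either group. The means were 8.27 ± 0.734 and 3.86 ± 0.793 FPKM (SD, n = 2 each), with a log2 difference of -0.94, a standard error of 0.177 and an interval of -1.38 to -0.49. The size of this difference exceeded that of 98.8% of all genes tested, and by p the gene ranked 70 of 14040. Adjusted over all genes, Trpm3 missed the threshold (limma unadjusted p = 0.00249, adjusted p = 0.496). Leaving out each sample in turn gave -0.77 to -1.11, and the adjusted p ran from 0.0875 to 1.00 over all alternatives.

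In the authors' deposited table Trpm3 was the single member listed, with a log2 fold change of -1.10, p = 2e-04 and q = 0.0225. By its name, that table is limited to genes that differ at least 2-fold, a limit that the limma test does not have. Every other member fell short of it by the means, the nearest being Trpm8 at 1.59-fold lower. Their absence therefore says nothing about their p. That table holds 150 genes, 1.04% of the matrix, and 129 of them (0.896% of the matrix) were lower in the mutants. The group values it gives for Trpm3 are the means of the same 4 columns, so both results rest on the same 4 libraries, and the table is not independent of the limma result. With 2 samples in each group, the smallest p that an exact two-sided permutation test allows is 0.333.

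**Figure D2:**
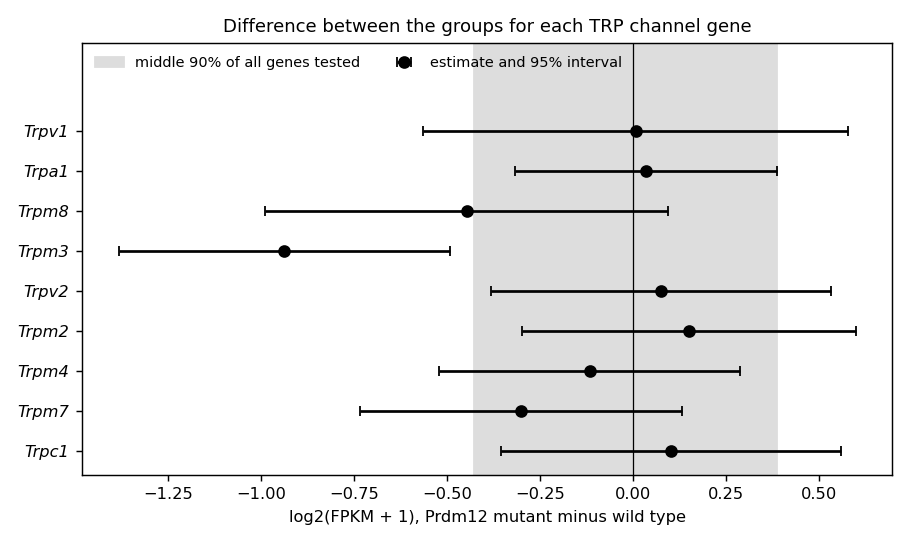
Difference in log2(FPKM + 1), mutant minus wild type, for each TRP channel gene (points) with limma's 95% interval (bars), over a grey band that holds the middle 90% of all genes tested. Trpm3 lies at -0.94 with an interval that ends at -0.49, and the intervals of the other 8 genes include 0.

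A part of the markers of fibroblasts and of the meninges, the sheath that encloses the ganglion and the spinal roots, was lower in both mutants. Of 13 such genes, 8 were lower without overlap and 0 higher, against 19.6% and 12.5% of all genes tested. With limma all 8 were at an unadjusted p under 0.05 and 0 at an adjusted one. Of all genes tested, 3.01% were lower at that unadjusted p. The list's median log2 difference was -1.28. The list was written with the fall of several of its genes known from earlier results, so it is a description and not independent evidence. The summed level of the list was 19393 and 18150 FPKM in wild type and 9071 and 6177 FPKM in the mutants, and no gene of it was at 0 in any sample. Ptgds, which encodes a prostaglandin D synthase, was the most abundant of them in the wild types, with 13098 and 13055 FPKM in the wild types against 3201 and 3025 FPKM in the mutants. It made up most of the wild type sums and of the gap between the groups, so the sums mainly show this gene. The list's median deviation on the log2 scale, which weighs the genes alike, was 0.74 and 0.49 in wild type and -0.51 and -0.85 in the mutants. Aldh1a2, which encodes a retinaldehyde dehydrogenase, had a log2 difference of -1.89, the amino acid transporter gene Slc6a20a of -2.08, the anion transporter gene Slc22a6 of -1.92, Nnat of -1.80, Igf2 of -1.50, the GABA and taurine transporter gene Slc6a13 of -1.28 and the transcription factor gene Foxc1 of -0.92. The general fibroblast genes overlapped between the groups, with Dcn at -0.36. Named to complete the list, Pdgfra was at -0.41, Lum at -0.26, Col1a2 at -0.06 and Col1a1, in the other direction, at 0.19. The part of these cells in the Trpm3 difference was not tested. The summed level of the pan-neuronal genes was 4596 and 6067 FPKM in wild type and 4889 and 7203 FPKM in the mutants. Uchl1 alone held 1593 and 1983 FPKM of the wild type sums and 1636 and 2433 FPKM of the mutant sums. With the libraries scaled to the pan-neuronal genes the log2 difference of Trpm3 was -1.09, or -0.92 relative to the median of all genes on that scale. These genes do not single out the neurons that make Trpm3, and the part of neuronal content in its difference was not tested.

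**Figure D3:**
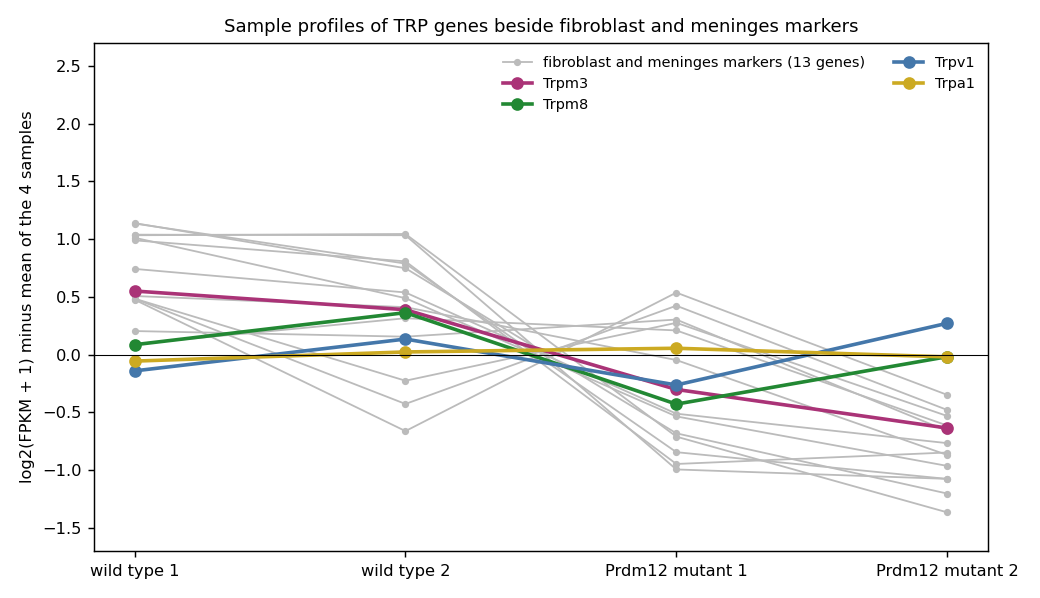
Log2(FPKM + 1) in each sample minus the gene's mean over the 4 samples, for Trpm3, Trpm8, Trpv1 and Trpa1 (coloured) and 13 fibroblast and meninges markers (grey), with lines that join the values of 1 gene. Trpm3 runs from 0.55 in wild type 1 to -0.64 in mutant 2 within the span of the grey lines, and Trpa1 stays within 0.06 of its mean.

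Over 9481 other genes whose mean reached 5 FPKM, the 3 whose profile over the 4 samples lay closest to that of Trpm3, by Euclidean distance of centred log2(FPKM + 1), were Fibin (distance 0.104), the junction protein gene Pkp4 (0.108) and the growth factor gene Bmp4 (0.116). Bmp4 showed 25.01 and 21.4 FPKM in the wild types and 12.6 and 11.0 FPKM in the mutants. Within a distance of 0.2 of Trpm3 there were 14 genes. For Trpm8 there were 11, the closest being Tpd52l1 (0.1001), the nociceptor phosphatase gene Acpp (0.111) and the itch receptor gene Mrgpra3 (0.130). The profile of Trpv1 had 848 genes within that distance, led by Surf2, Bsg and Dhx57, and that of Trpa1 had 2102, led by Ubtd2, Slc29a1 and Ocrl. With so many genes that near over 4 samples, the closest ones to Trpv1 and Trpa1 single out no gene. The counts depend on how far a profile departs from flat. The length of the centred profile was 0.084 for Trpa1, 0.43 for Trpv1, 0.57 for Trpm8 and 0.97 for Trpm3. The smaller counts for Trpm8 and Trpm3 are therefore no measure of a closer link to their neighbours.

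The promoters of Trpm3, of the widely expressed Trpm7 and of the nociceptor channel Trpv1 are shown because they differ in the density of CpG dinucleotides, a base step that is frequent in promoters of broadly active genes. The windows are the 250 bases before the RefSeq start site on GRCm38.p6, the same assembly as mm10, written 5′ to 3′ on the gene's strand with each CG in capitals. They lie at chr19:22138796-22139045 (plus) for Trpm3, chr2:126876262-126876511 (minus) for Trpm7 and chr11:73233899-73234148 (plus) for Trpv1.
Trpm3: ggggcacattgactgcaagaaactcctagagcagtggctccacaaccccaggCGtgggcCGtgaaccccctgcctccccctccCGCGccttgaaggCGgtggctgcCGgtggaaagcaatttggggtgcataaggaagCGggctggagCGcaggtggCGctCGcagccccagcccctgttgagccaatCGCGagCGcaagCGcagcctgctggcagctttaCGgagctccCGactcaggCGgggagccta
Trpm7: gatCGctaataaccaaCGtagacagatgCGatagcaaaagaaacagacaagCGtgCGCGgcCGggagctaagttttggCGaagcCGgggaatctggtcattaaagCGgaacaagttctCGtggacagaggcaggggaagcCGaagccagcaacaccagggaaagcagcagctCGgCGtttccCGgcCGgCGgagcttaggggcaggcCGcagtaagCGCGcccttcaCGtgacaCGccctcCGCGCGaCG
Trpv1: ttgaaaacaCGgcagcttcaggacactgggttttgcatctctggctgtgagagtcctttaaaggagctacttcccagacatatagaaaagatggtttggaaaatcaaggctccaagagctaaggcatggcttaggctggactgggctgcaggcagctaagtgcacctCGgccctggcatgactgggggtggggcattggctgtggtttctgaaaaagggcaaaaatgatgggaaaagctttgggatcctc
The Trpm3 window holds 17 CpG and the Trpm7 window 26, where the median of 32851 such windows is 6, and 76.5% and 90.4% of windows hold fewer. The Trpv1 window holds 2, and 18.8% of windows hold fewer. Trpm3 has another RefSeq start 309 kb downstream, whose window holds 9. Of the other members with an entry, Trpm8 had 1 CpG, Trpv2 had 2, 2 and 5 at its 3 starts, Trpm2 had 10 and Trpc1 had 17. On this measure Trpm3, by its upstream window, stood with the widely expressed Trpm7, Trpc1 and Trpm2. Trpm8 stood with Trpv1 and with Trpv2, which is widely expressed too, so CpG density did not follow the classes. The Trpm8 window, at chr1:88306485-88306734, lies inside the annotated gene and overlaps a Trpm8 exon. Its CpG count is therefore not that of the bases before the annotated gene start. TGTGGT, a core motif of the Runx factors that direct sensory neuron types, was searched on both strands. It occurred once in the Trpv1 window and once in the downstream Trpm3 window, in none of the other member windows, and in 14.0% of all windows. The gene-level FPKM do not separate the starts, so which of them the Trpm3 difference concerns cannot be read from these values. Trpa1 and Trpm4 had no entry.

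Among the widely expressed channels, Trpm7 was lower in both mutants. The gene, at chr2:126791565-126876230 (ENSMUSG00000027365.14, minus strand), encodes a magnesium-permeable channel fused to a protein kinase. It had 9.76 and 8.85 FPKM in the wild types against 8.36 and 6.46 FPKM in the mutants. Wild type 2 and mutant 1 lay closest together, and mutant 2 was the low sample. The means were 9.30 ± 0.646 and 7.41 ± 1.34 FPKM (SD, n = 2 each), a log2 difference of -0.30 with an interval of -0.73 to 0.13 (limma unadjusted p = 0.136, adjusted p = 0.994). Without mutant 2 it was -0.14 and without mutant 1 it was -0.46.

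Trpv2, at chr11:62574486-62600515 (ENSMUSG00000018507.16, plus strand), encodes a channel related to TRPV1 that is also made by macrophages. It was the most abundant member, at 12.9 and 15.8 FPKM in the wild types against 13.6 and 16.8 FPKM in the mutants, with overlapping groups and a log2 difference of 0.07 (interval -0.38 to 0.53). Trpc1, at chr9:95705082-95750375 (ENSMUSG00000032839.13, minus strand), encodes a canonical TRP subunit that joins other TRPC subunits. It showed 2.00 and 2.39 FPKM in the wild types and 2.101 and 2.78 FPKM in the mutants (log2 difference 0.10, interval -0.36 to 0.56). Like Trpv1, both genes were higher in the second sample of each group.

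Trpm4, at chr7:45302632-45333780 (ENSMUSG00000038260.10, minus strand), encodes a channel for monovalent cations that intracellular calcium opens. Wild type 1 and 2 were both at 5.03 FPKM, and the mutants at 5.11 and 4.06 FPKM, so that mutant 2 alone was low (log2 difference -0.12, interval -0.52 to 0.29). Trpm2, at chr10:77907722-77970563 (ENSMUSG00000009292.18, minus strand), encodes a channel gated by ADP-ribose and oxidative stress that is prominent in phagocytes. It was the scarcest member in wild type, at 1.12 and 1.50 FPKM, with the mutants at 1.51 and 1.60 FPKM. Its groups did not overlap, by a margin of less than 0.01 FPKM, and its log2 difference was 0.15 (interval -0.30 to 0.60). The adjusted p of Trpv2, Trpc1, Trpm4 and Trpm2 with limma was 0.994 each. Markers of the phagocytes that share Trpm2 and Trpv2 differed between samples, with summed levels of 824 and 1033 FPKM in wild type and 1046 and 756 FPKM in the mutants for 9 macrophage genes, and of 1454 and 2273 FPKM against 2929 and 2205 FPKM for 7 neutrophil genes. Their part in the Trpm2 and Trpv2 values was not tested.

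Put together by class, the 3 restricted channels had log2 differences from -0.45 to 0.03 with 1 lower without overlap, and the 5 widely expressed ones from -0.30 to 0.15 with 1 lower and 1 higher. The ranges of the classes overlapped, Trpm3 lay outside both, and the difference between the classes was not tested. The summed level of the restricted channels was 21.0 and 24.9 FPKM in wild type and 19.5 and 25.4 FPKM in the mutants. That of the widely expressed ones was 30.9 and 33.6 FPKM against 30.6 and 31.7 FPKM. For 7 of the 9 members the range within 1 of the groups exceeded the difference between the groups on the log2 scale. The exceptions were Trpm3 and Trpm8.

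Since FPKM are scaled to transcript length, levels can be ordered between genes. In wild type the order of the means was Trpv2, Trpv1, Trpm7, Trpm3, Trpa1, Trpm4, Trpm8, Trpc1 and Trpm2, and the samples of neighbours overlapped for Trpv2 with Trpv1 and for Trpm8 with Trpc1. In the mutants Trpm3 moved from rank 4 to rank 6, at 3.86 FPKM below Trpm4 at 4.58 FPKM, with overlapping samples. Trpm8 moved from rank 7 to rank 9, at 1.55 FPKM beside Trpm2 at 1.56 FPKM, and their samples overlapped too. Trpv2 overlapped with Trpv1 again, and Trpm7 with Trpa1. The ranks of Trpv2, Trpv1 and Trpm7 were the same in both groups.

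Of 18 other genes of the TRP superfamily that were looked up, 7 were in the matrix and tested, and 3 of them were lower without overlap and 0 higher, beside the 19.6% and 12.5% of all genes tested. The same 3 were at an unadjusted p under 0.05, 0 passed over all genes with limma, and the list's median log2 difference was -0.07. Pkd2 encodes polycystin-2, a channel of the primary cilium. It had 25.9 and 25.7 FPKM in the wild types against 16.8 and 14.4 FPKM in the mutants, a log2 difference of -0.70 (limma unadjusted p = 0.00477, adjusted p = 0.602). Trpm6, the magnesium channel closest to Trpm7, was at 1.69 and 1.28 FPKM against 0.778 and 0.510 FPKM (log2 difference -0.60, adjusted p = 0.994). Trpc6, a channel gated by diacylglycerol, was at 2.63 and 3.60 FPKM against 1.67 and 1.93 FPKM (-0.55, adjusted p = 0.994). Mcoln1, which encodes a lysosomal channel and was the most abundant of the list, overlapped between the groups with a log2 difference of 0.05. None of these 7 stood in the authors' deposited table. Only Trpm6, 2.30-fold lower by the means, was past that table's fold limit. By its name the table is also limited by FPKM, and the mutant mean of Trpm6 was 0.644 FPKM. Whether that limit left Trpm6 out is unknown. Pkd2 at 1.66-fold and Trpc6 at 1.73-fold fell short of the fold limit, so their absence says nothing about their p. As given above, 8 of the 13 fibroblast and meninges markers were lower in the mutants without overlap, against 19.6% of all genes tested. The part of those cells was not tested.

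**Figure D4:**
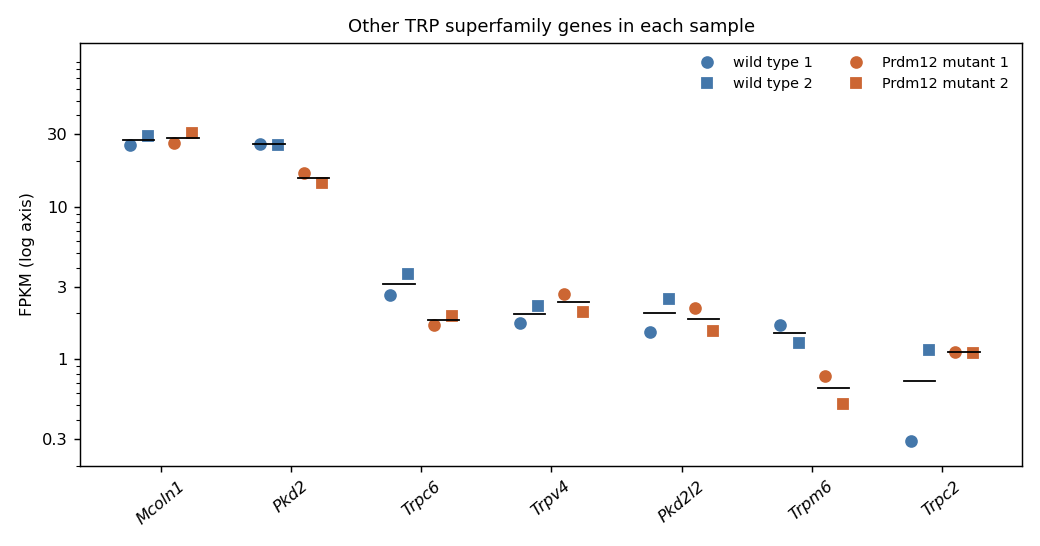
FPKM on a log axis for 7 other TRP superfamily genes in the matrix, with the same colours, symbols and group means as in the plot of the 9 members. The mutant points of Pkd2, Trpc6 and Trpm6 lie below their wild type points, and Mcoln1, Trpv4, Pkd2l2 and Trpc2 overlap.

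Partners and modulators of TRP channels stood near the background. Of 23 tested, which include calmodulins, protein kinases and phospholipases, 0 were at an unadjusted p under 0.05, and the median log2 difference was 0.03. The most abundant were S100a10, which encodes an annexin partner, at -0.08, and the calmodulin gene Calm2 at -0.09. Of 17 tested receptors that sensitize or open TRP channels, such as those for nerve growth factor, bradykinin, prostaglandins and itch cytokines, 6 were lower and 3 higher without overlap, where 19.6% and 12.5% of all genes tested were, and the median was -0.25. Il31ra, which encodes a receptor subunit for the itch cytokine interleukin-31, showed 4.97 and 5.32 FPKM in the wild types and 3.34 and 2.97 FPKM in the mutants (log2 difference -0.56, limma unadjusted p = 0.0107, adjusted p = 0.790). Ptgir, the prostacyclin receptor gene, was higher, at 2.95 and 3.56 FPKM against 4.25 and 6.76 FPKM (0.59, unadjusted p = 0.0470, adjusted p = 0.994). The remaining genes without overlap are named after their values were seen. The other 2 higher ones were Crlf2 (0.11) and P2ry2 (0.39), and the other 5 lower ones were Bdkrb2 (-0.57), Mrgpra3 (-0.53), Ptger3 (-0.40), Osmr (-0.29) and Ptger4 (-0.07), all at an unadjusted p above 0.05. The abundant cytokine receptor genes Il6st (-0.28) and Tnfrsf1a (-0.25) overlapped between the groups.

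Nociceptor genes at large had a median log2 difference of 0.01 over 15 tested genes, which is the value of Trpv1, itself a member. Of these, 2 were at a limma unadjusted p under 0.05, both lower, where 3.01% of all genes tested were. They were Cd55 (log2 difference -0.57) and Prdm12, whose fall follows from the genotype and tells nothing about the other nociceptor genes. Without overlap 3 were lower, Prdm12 among them, and 1 higher, against 19.6% and 12.5% of all genes tested. Calca (0.01) and Tac1 (0.15), the most abundant of the list, encode the neuropeptides CGRP and substance P. Over the 14 pan-neuronal genes the median was 0.25, with Uchl1 at 0.17 and Stmn3 at 0.10 and 0 at an unadjusted p under 0.05.

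Lists for the other cells of the ganglion and its surroundings were read as background to the members. Myelinating Schwann cell genes had a median of 0.63, with the myelin gene Pmp22 at 3153 and 2752 FPKM in the wild types against 3404 and 6144 FPKM in the mutants, so that mutant 2 stood apart. The median was 0.01 for satellite glia, 0.03 for skeletal muscle, 0.52 for adipocytes, -0.04 for macrophages, 0.52 for neutrophils, -0.05 for endothelium, 0.05 for mural cells, 0.90 for erythrocytes and 0.11 for 3 spinal cord genes. Without overlap, 5 of 5 erythrocyte and 8 of 11 Schwann cell genes tested were higher and 0 lower, against 12.5% and 19.6% of all genes tested. At a limma unadjusted p under 0.05, 5 erythrocyte genes and 1 Schwann cell gene were higher, against 1.35% of all genes tested. At an adjusted one there were 0. Mutant 2, which had the lowest values of Trpm3, Trpm4 and Trpm7, was also the sample with the most Schwann cell, muscle and adipocyte RNA and the least fibroblast and meninges RNA. The part of this makeup in the values of those members was not tested.

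**Figure D5:**
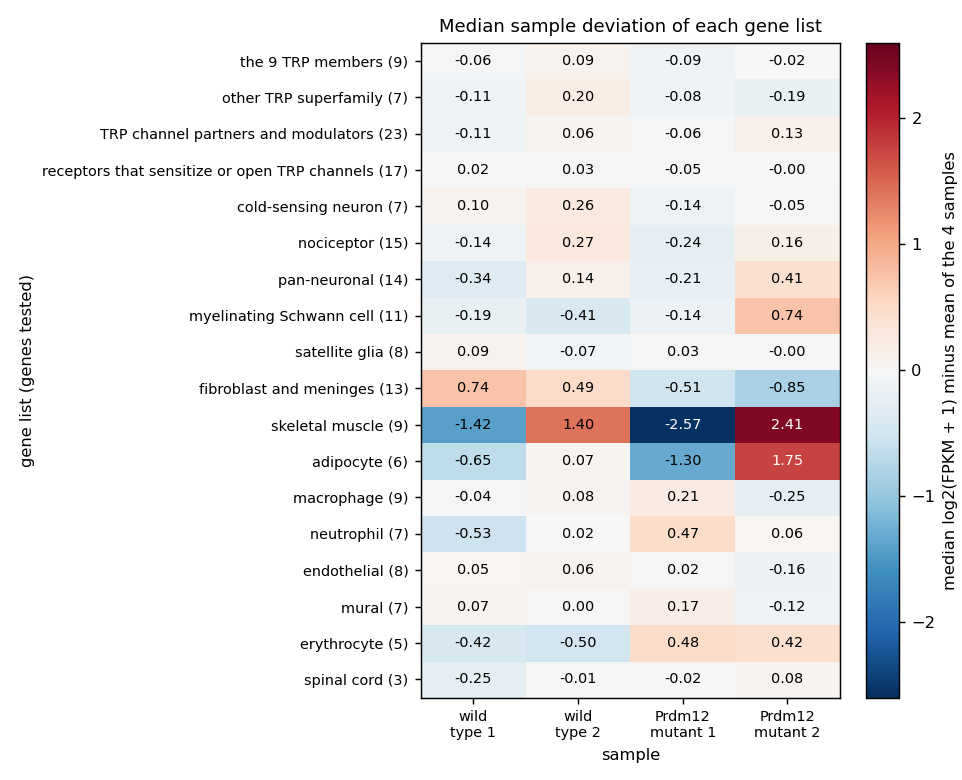
Median over the genes of each list of log2(FPKM + 1) minus the gene's mean over the 4 samples, with lists in rows (genes tested in brackets), samples in columns and the value printed in each cell. The 9 TRP genes stay between -0.09 and 0.09, fibroblast and meninges genes run from 0.74 in wild type 1 to -0.85 in mutant 2, and muscle genes differ most between samples of 1 group.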

How the data were processed

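The authors deposited FPKM values of 14405 genes in 4 samples, where each gene reached 1 FPKM in some sample. They also deposited a list of 150 genes that gives the FPKM of each group with a log2 fold change, p-value and q-value, in Cuffdiff's columns per the file headers. By its name, the list is limited by FPKM, by fold change and by false discovery rate. The submitters' processing notes name CASAVA, TopHat2 (2.1.2), Cufflinks (2.2.1) and mm10, and their settings were not given in the sources used here. FPKM hold no counts, and only 3 genes had low values in enough samples to look for the worth of 1 read, so depth is unknown.

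From these values, log2(FPKM + 1) was tested with limma 3.58.1 in R 4.3.3 with a variance trend on mean expression. The fit covered 14040 genes with a group mean of at least 1 FPKM, all 9 members among them, with 2 residual and 3.44 prior degrees of freedom, and p-values were adjusted by Benjamini and Hochberg at 0.05. Fold values are ratios of mean FPKM. Groups and replicate numbers come from the titles. The script was tested on simulated data. Alternatives were another constant, other filters and scalings, no variance trend, a replicate block and leaving out each sample.

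The members and the 18 gene lists were chosen with earlier results of these data known. Named are all members, Prdm12 and Avil, from each list the 2 most abundant genes and those at an unadjusted p under 0.05 (in part for background lists), and the 3 closest profiles of 4 members. Genes outside this are said to be so. Some genes are not reported here and were left out of the lists. Gene coordinates are those of GENCODE M21 (GRCm38, the assembly of mm10). Promoters are from RefSeq's GRCm38.p6, with 7 of 9 members matched. Figures were drawn with matplotlib 3.10.9.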

Additional observations from a re-analysis of the deposited data

How the results depend on the processing

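No member passed over all genes under any of the 12 alternatives, and Trpm3, Trpm7, Trpm8 and Trpm2 had the same direction in each one that tested them. Trpm3 was at an unadjusted p under 0.05 in 12 of 12. With a minimum of 5 FPKM, Trpm8, Trpc1 and Trpm2 were not tested. Over all genes, limma called 0 (612 at an unadjusted p under 0.05), 52 with the libraries scaled to pan-neuronal genes, 61 with the replicate block, and 0 to 5 with each sample left out, the 5 without wild type 1. Members at an unadjusted p under 0.05 numbered 1, and 2 (Trpm3 and Trpm8) with the replicate block, under which 10.5% of all genes reached that p against 4.36%. With each sample left out there were 1 to 2, the 2 without mutant 2 (3.44% of all genes). The members' median of 0.01 was -0.18 with pan-neuronal scaling, which moved the median of all genes to -0.18, and ran from -0.12 (without wild type 1) to 0.074 with each sample left out. Near 0, directions turned. With pan-neuronal scaling the difference was -0.18 for Trpv1, -0.11 for Trpv2, -0.13 for Trpa1 and -0.037 for Trpc1. With each sample left out it ran from -0.26 to 0.27 for Trpv1, from -0.070 to 0.22 for Trpv2, from -0.0054 to 0.074 for Trpa1, from -0.040 to 0.24 for Trpc1 and from -0.25 to 0.018 for Trpm4. The causes were not tested. With the replicate block the adjusted p of Trpm3 was 0.0875. The labels do not say what a number marks, and differences between the second and the first sample correlated between the groups at 0.48 over genes, which are not independent. With unknown depth, the values near 1 FPKM (Trpm2 and Trpm8) have an unknown counting error.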
